A study of Mus musculus with 4 samples.

Results

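The MAP kinase cascade genes are the kinases whose mouse gene symbols begin with Mapk, Map2k, Map3k or Map4k followed only by a number. The rule reads the symbol alone, and the set was proposed with earlier results of these data known. The rule found 43 of the 52327 gene names in the deposited table, with 13 in the Mapk class, 7 in the Map2k class, 18 in the Map3k class and 5 in the Map4k class. Their levels were compared between mouse 46C embryonic stem cells in 2i medium (ESCs, 2 libraries, the control) and cells of the same line in PIF medium (rfISCs, 2 libraries). The labels describe the rfISCs as stem cells intermediate between the rosette and the formative state. 46C is 1 cell line, made from mouse embryonic stem cells, in which the Sox1 locus carries a GFP reporter, and all 4 libraries share it. 2i medium holds an inhibitor of MEK, the enzyme encoded by Map2k1 and Map2k2, and an inhibitor of GSK3. What PIF medium holds was not given in the sources used here. Medium and cell state differ together between the groups and cannot be told apart. RNA levels do not measure kinase activity.

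A MAP kinase cascade is a relay of protein kinases. A MAP4 kinase, a small GTPase or an adaptor protein engages a MAP3 kinase, which phosphorylates a MAP2 kinase, which phosphorylates a MAP kinase on a threonine and a tyrosine of its activation loop. The ERK, JNK, p38 and ERK5 branches are the conventional MAP kinase routes. In naive mouse embryonic stem cells FGF4 signals through the ERK branch, and blocking that branch is part of how 2i medium keeps cells in the naive state.

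The residue between the threonine and the tyrosine of the activation loop sets the JNK and p38 genes apart. It is the same in the ERK and ERK5 genes shown. The coding sequence of the loop is given for 9 conventional MAP kinases, 33 bases each, 5′ to 3′ on the coding strand, from GRCm38 with the GENCODE M21 annotation. Capitals mark the codons of threonine, the residue between, and tyrosine, the pair of phosphorylated residues being the outer ones.
Mapk3: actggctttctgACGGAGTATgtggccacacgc
Mapk7: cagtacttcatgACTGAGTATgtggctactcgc
Mapk8: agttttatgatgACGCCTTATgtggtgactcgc
Mapk9: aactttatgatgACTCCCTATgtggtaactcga
Mapk10: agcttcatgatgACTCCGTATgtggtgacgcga
Mapk11: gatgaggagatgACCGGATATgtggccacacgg
Mapk12: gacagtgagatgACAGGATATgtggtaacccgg
Mapk13: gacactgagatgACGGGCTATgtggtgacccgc
Mapk14: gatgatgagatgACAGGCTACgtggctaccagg

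The middle codon encoded glutamate in the ERK gene Mapk3 and in the ERK5 gene Mapk7. It encoded proline in the JNK genes Mapk8, Mapk9 and Mapk10, and glycine in the p38 genes Mapk11, Mapk12, Mapk13 and Mapk14. Each stretch lay in a coding exon. For Mapk10 it was exon 8 at chr5:102989669-102989701 on the minus strand, for Mapk11 exon 7 at chr15:89145854-89145886 on the minus strand, and for Mapk12 exon 7 at chr15:89134664-89134696 on the minus strand. Mapk12 and Mapk13 were identical at 28 of the 33 bases, Mapk9 and Mapk10 also at 28, and Mapk11 and Mapk14 at 26. Mapk3 and Mapk7 were identical at 23 bases. Between JNK and p38 genes the number ran from 15 (Mapk10 and Mapk14) to 22 (Mapk9 and Mapk12, among others). Within the p38 genes the lowest was 23, for Mapk11 and Mapk13. How the authors' tool divided reads between such stretches was not given.

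Of the 43 genes, 41 passed the filter on low counts. Map3k19 had no count in any library. Map3k21, which encodes a mixed-lineage kinase, had 2 and 0 counts in the ESCs libraries and 4 in each rfISCs library, and was not tested. By edgeR's quasi-likelihood test, adjusted over all genes tested, 19 members were higher in rfISCs, 5 were lower and 17 did not pass. The called members were 58.5% of those tested, beside 53.7% of all 16355 genes tested, which is close to the background. Members called higher were 46.3% of those tested beside 27.3% of all genes, and members called lower 12.2% beside 26.4%. The median log2 fold change was 0.23 over the members and 0.00 over all genes tested. The rise was at least 2-fold in 6 members, where 11.9% of all genes were called and at least 2-fold higher. Across the 13 other settings tried, 12 of the 24 called members stayed called in each: Map2k2, Map2k6, Map3k9, Map3k14, Map3k20, Map4k5, Mapk3, Mapk10, Mapk11, Mapk12 and Mapk14 as higher, and Map4k3 as lower.

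Total counts per library ran from 19243701 to 23780989. Whether the replicates are separate cultures is not in the labels. The p-values therefore cover the variation among these 4 libraries, part or all of which may be technical. An exact two-sided permutation test with 2 libraries a group reaches p = 0.333 at the lowest, so every call here comes from the model over the whole table. All 10 naive markers were lower in rfISCs, with a summed level of 4329 and 4441 CPM (counts scaled to library size) in ESCs and 1070 and 1045 CPM in rfISCs. All 10 formative and rosette markers were higher, at 464 and 421 CPM in ESCs and 1935 and 1924 CPM in rfISCs. In such bulk libraries, fewer cells of a type and less RNA per cell cannot be told apart.

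**Figure D1:**
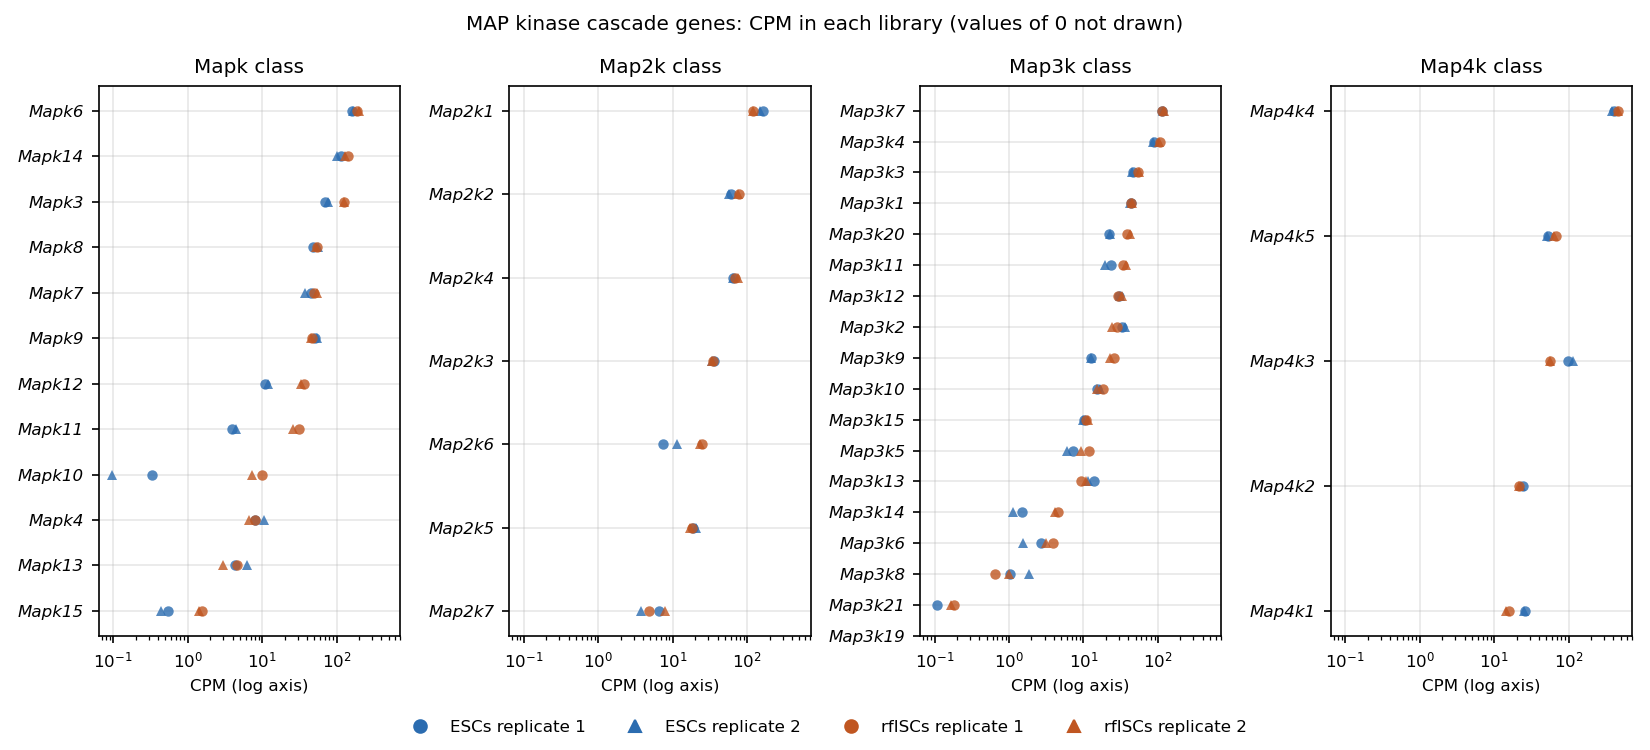
CPM (log axis) of 42 members in each library, by class; blue marks are ESCs, orange marks rfISCs, circles replicate 1 and triangles replicate 2, and values of 0 are not drawn. The orange marks lie far to the right of the blue ones for Mapk10, Mapk11 and Mapk12, while most other members have marks close together.

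The plot of members by library shows that most kinases of the cascade had levels close together in both states and that a few with low counts stood well apart. CPM of the groups did not overlap for 34 of the 41 tested members (82.9%), beside 77.7% of all genes tested. Among the 17 members that did not pass, the groups did not overlap for 10 and overlapped for 7.

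In the ERK branch, Mapk3, which encodes ERK1, rose. Mapk3 was at 70.8 and 76.9 CPM in ESCs against 125 and 128 CPM in rfISCs. Both rfISCs libraries lay well above both ESCs libraries, a rise of 1.71-fold (log2 fold change 0.77, SE 0.0680, adjusted p = 1.43e-05). In TPM, a relative abundance of transcripts that corrects for length, Mapk3 was at 60.1 ± 2.50 (mean ± SD, n = 2 libraries) in ESCs and 118 ± 1.65 in rfISCs. The median log2 fold change on log2(TPM + 1) was 0.145 toward rfISCs over the genes kept by the filter on TPM and 0.0457 without that filter. TPM levels set side by side between the groups are to be read against that shift.

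The MEK genes moved in opposite directions. Map2k1 and Map2k2 encode MEK1 and MEK2, the kinases that phosphorylate ERK. Map2k1 was at 161 and 148 CPM in ESCs against 119 and 121 CPM in rfISCs, without overlap (fall of 1.28-fold, SE 0.0634 on the log2 scale, adjusted p = 0.00117). Map2k2 was at 60.5 and 56.8 CPM in ESCs against 76.6 and 74.2 CPM in rfISCs, again without overlap (rise of 1.29-fold, SE 0.0724 on the log2 scale, adjusted p = 0.00244). None of the 3 limma fits on TPM called Map2k1 (log2 fold change -0.17, adjusted p = 0.107 on log2(TPM + 1)). The ratio of Map2k2 TPM to Map2k1 TPM was 0.609 and 0.651 in ESCs and 0.997 and 0.959 in rfISCs. The summed TPM of both genes was 143 ± 5.83 in ESCs and 155 ± 2.92 in rfISCs, so the total differed less than its division between the genes.

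The ERK5 branch is built from Map2k5, which encodes MEK5, and Mapk7, which encodes ERK5. Mapk7 was at 45.7 and 37.6 CPM in ESCs against 49.5 and 54.8 CPM in rfISCs. The groups did not overlap and the rise passed narrowly (log2 fold change 0.33, SE 0.106, adjusted p = 0.0267). The call was lost in 6 of the 13 other settings, which were leaving out ESCs replicate 2 (adjusted p = 0.0803) or rfISCs replicate 2 (0.168), Ensembl transcripts alone (0.0671) and the 3 limma fits on TPM. Map2k5 was at 18.9 and 20.3 CPM in ESCs against 18.2 and 17.2 CPM in rfISCs and did not pass (log2 fold change -0.15, adjusted p = 0.305).

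In the p38 branch Mapk11, Mapk12 and Mapk14 rose and Mapk13 did not pass. Mapk14 encodes p38 alpha, the widely expressed form, Mapk11 p38 beta, Mapk12 p38 gamma and Mapk13 p38 delta. Mapk11 was at 3.93 and 4.42 CPM in ESCs against 31.5 and 25.7 CPM in rfISCs. Every rfISCs value was several times every ESCs value, a rise of 6.82-fold (log2 fold change 2.77, SE 0.159, adjusted p = 9.53e-07). Mapk12 was at 10.8 and 12.1 CPM in ESCs against 36.0 and 32.8 CPM in rfISCs, a rise of 3.0-fold without overlap (SE 0.114 on the log2 scale, adjusted p = 3.99e-06). Mapk14 was at 115 and 99.9 CPM in ESCs against 143 and 131 CPM in rfISCs (log2 fold change 0.35, SE 0.0800, adjusted p = 0.00494). Its groups did not overlap, and its rise was much smaller than those of Mapk11 and Mapk12. Mapk13 was at 4.36 and 6.22 CPM in ESCs against 4.53 and 2.99 CPM in rfISCs, with overlapping groups (log2 fold change -0.50, SE 0.282, adjusted p = 0.164). Leaving out ESCs replicate 1 gave Mapk13 a call as lower.

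**Figure D2:**
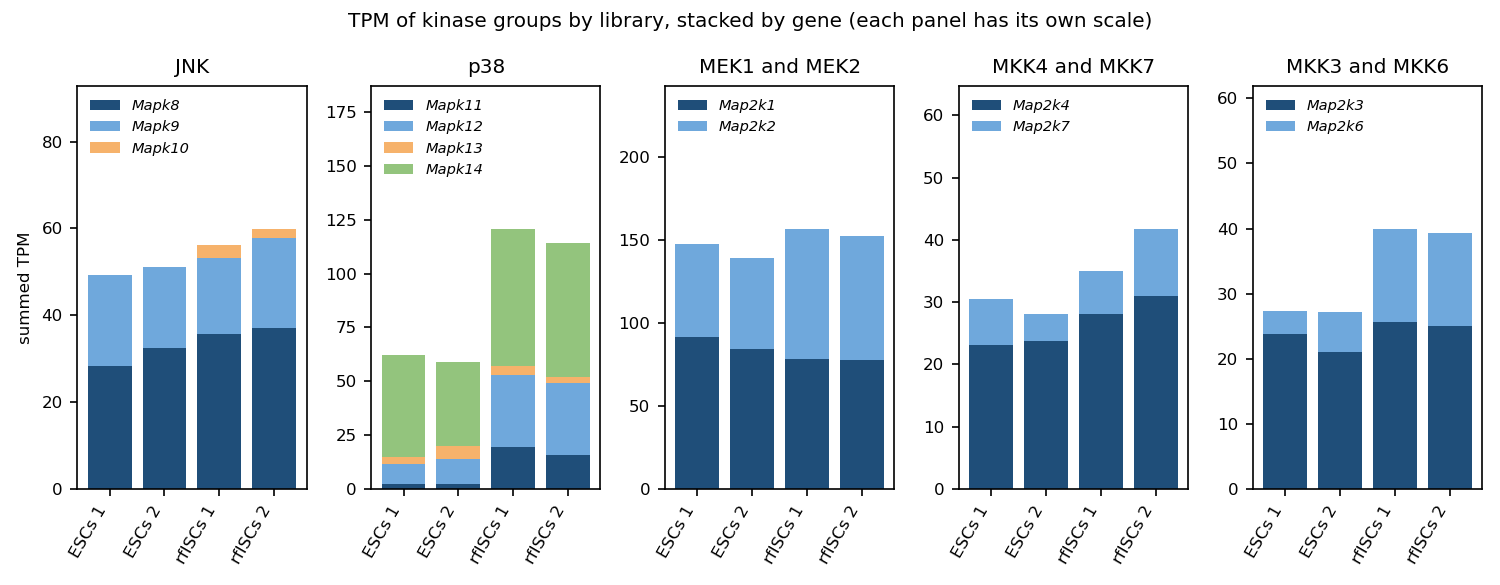
TPM of 5 groups of kinases in each library, stacked by gene, each panel with its own scale from 0. The p38 bars stand at 62.1 and 58.99 TPM in ESCs and at 120.8 and 114 TPM in rfISCs, with visibly larger Mapk11 and Mapk12 segments in rfISCs.

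The stacked bars show how each group was made up. The 4 p38 genes summed to 60.55 ± 2.20 TPM in ESCs and 117 ± 4.77 TPM in rfISCs, a ratio of 1.94. Mapk14 held 76.4% and 66.6% of the p38 TPM in ESCs and 52.8% and 54.5% in rfISCs. Mapk11 held 3.45% and 4.07% in ESCs and 16.1% and 13.8% in rfISCs. Mapk14 was the largest p38 gene by TPM in every library, with a smaller share of the group in rfISCs. Mapk12 held 14.9% and 19.7% in ESCs and 27.8% and 29.4% in rfISCs.

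Mapk12 and Mapk11 lie next to each other on chromosome 15, as do Mapk14 and Mapk13 on chromosome 17. Among the 6 nearest protein-coding neighbours of Mapk12 and Mapk11, Tubgcp6, a gene for a component of the gamma-tubulin ring complex, was called (log2 fold change 0.37, adjusted p = 0.00215). Hdac10, a deacetylase gene directly beside Mapk12, had a log2 fold change of 0.05 and did not pass. Plxnb2, the semaphorin receptor gene directly beside Mapk11, had a log2 fold change of -0.03 and did not pass. No tested neighbour on chromosome 15 reached the rise of Mapk12 or Mapk11. Beside Mapk14 and Mapk13, the splicing kinase gene Srpk1 rose (0.36), the gene Brpf3 fell by 0.59 and Bnip5 fell by 1.36 on the log2 scale, each called by edgeR. The sources do not state whether reads were counted by strand, so those from overlapping parts of neighbouring genes cannot be told apart.

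**Figure D3:**
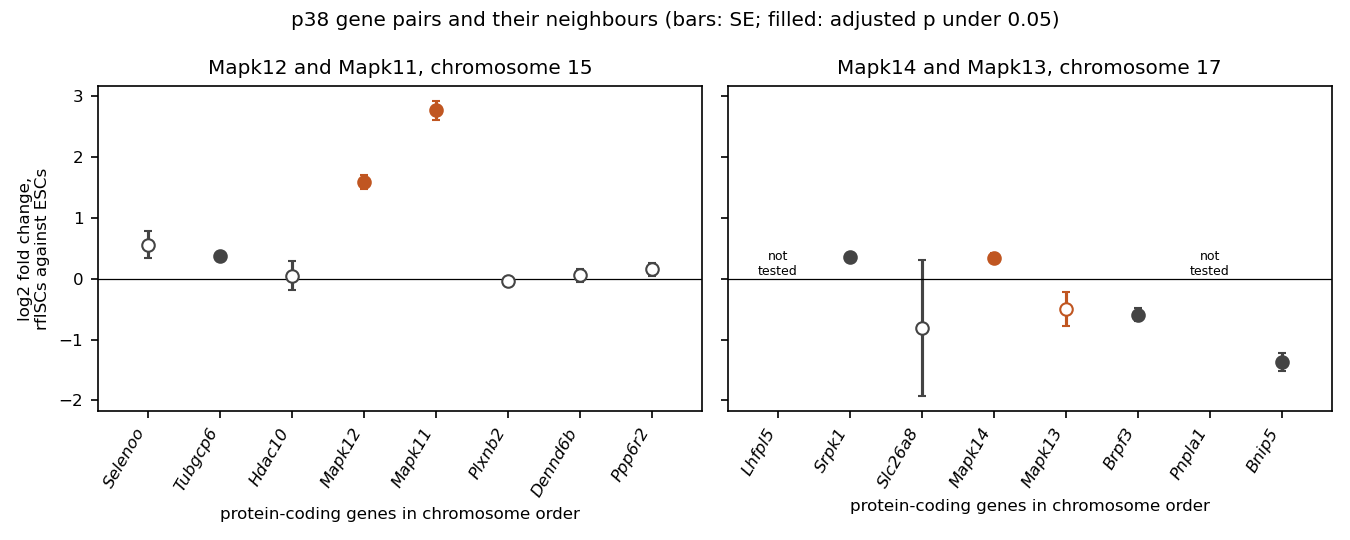
Log2 fold change of rfISCs against ESCs (bars are the SE from edgeR) for the p38 gene pairs, in orange, and for the nearest protein-coding genes in chromosome order, in grey; filled marks have an adjusted p under 0.05. Mapk12 at 1.59 and Mapk11 at 2.77 stand above every neighbour drawn.

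The p38 kinases are activated by MKK3 and MKK6, encoded by Map2k3 and Map2k6. Map2k6 was at 7.47 and 11.3 CPM in ESCs against 24.4 and 23.3 CPM in rfISCs. Both rfISCs values lay above both ESCs values, a rise of 2.53-fold (log2 fold change 1.34, SE 0.176, adjusted p = 0.000196). Map2k3 was at 35.9 and 33.3 CPM in ESCs against 34.4 and 33.4 CPM in rfISCs, with overlapping groups (log2 fold change -0.03, adjusted p = 0.802). The sign of Map2k3 turned positive with library totals and with TPM, still without passing. The ratio of Map2k6 TPM to Map2k3 TPM was 0.150 and 0.293 in ESCs and 0.560 and 0.575 in rfISCs. Map2k3 had the higher TPM of the pair in every library.

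In the JNK branch, Mapk10 went from near the limit of detection to a low level, while the differences of Mapk8 and Mapk9 were small. Mapk8 encodes JNK1 and Mapk9 JNK2, both widely expressed, while Mapk10 encodes JNK3, known mainly from brain, heart and testis. Mapk10 had 6 and 2 counts in the ESCs libraries and 221 and 177 counts in the rfISCs libraries. That is 0.327 and 0.0972 CPM in ESCs and 10.1 and 7.34 CPM in rfISCs, a fitted rise of 41.1-fold (log2 fold change 5.36, SE 0.420, adjusted p = 6.91e-06). With so few counts in ESCs the size depended on 1 library: leaving out ESCs replicate 1 gave a log2 fold change of 6.40, and leaving out ESCs replicate 2 gave 4.71. The value includes a pair of deposited transcripts with identical length and values, ENSMUST00000112847 and ENSMUST00000238446, which were both added in and each held 37.5% of the Mapk10 counts in rfISCs. Even in rfISCs, Mapk10 held 5.68% and 3.62% of the JNK TPM, against 0.203% and 0.0391% in ESCs.

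Mapk9 was at 51.6 and 54.6 CPM in ESCs against 46.1 and 45.4 CPM in rfISCs (log2 fold change -0.21, SE 0.0776, adjusted p = 0.0417). The groups did not overlap, but the fall lost its call in 11 of the 13 other settings, among them library totals (adjusted p = 0.190), DESeq2 and the replicate number as a block (0.0584). It was also lost without ESCs replicate 2 (0.118), without rfISCs replicate 1 (0.176) and without rfISCs replicate 2 (0.218). Mapk8 was at 47.7 and 55.9 CPM in ESCs against 54.6 and 53.4 CPM in rfISCs, with overlapping groups (log2 fold change 0.06, adjusted p = 0.617). The MAP2 kinases of this branch did not pass by edgeR. Map2k4, which encodes MKK4, had a log2 fold change of 0.16 (adjusted p = 0.108). It passed under library totals and under limma on TPM with the filter. Map2k7, which encodes MKK7, had a log2 fold change of 0.32 (adjusted p = 0.416). It was at 6.55 and 3.74 CPM in ESCs and 4.85 and 7.92 CPM in rfISCs, with overlapping groups. Leaving out ESCs replicate 1 gave Map2k7 a call as higher.

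Markers of neural cells, in which Mapk10 is known to be expressed, also differed. Of the 10 neural markers 8 were tested, of which 7 were higher in rfISCs and 1 was lower. Their summed level was 249 and 205 CPM in ESCs and 268 and 277 CPM in rfISCs, most of it from Ncam1, which fell, and Tubb3, which rose. The median log2 fold change of the tested neural markers was 3.28. Sox1 was at 1.80 and 1.26 CPM in ESCs against 38.2 and 35.3 CPM in rfISCs, and Pax6 at 2.35 and 0.729 CPM against 25.2 and 26.5 CPM. The defining markers Neurog2, Dcx and Fabp7 had no counts in ESCs and few in rfISCs. In the rfISCs libraries Neurog2 had 4 and 13 counts, Dcx 16 and 16, and Fabp7 10 and 12. The part of the neural markers in the Mapk10 result was not tested. Of the primitive endoderm markers 5 were higher and 1 was lower of 6 tested. The summed level of the list was 21.2 and 29.2 CPM in ESCs and 87.5 and 91.6 CPM in rfISCs. Most of that level in rfISCs was from Col4a1, at 4.36 and 4.13 CPM in ESCs and 48.5 and 50.8 CPM in rfISCs. Gata6, Sox17, Sox7 and Afp had at most 4 counts in any library and were not tested. Trophoblast markers summed to 6.38 and 7.82 CPM in ESCs and 17.1 and 19.8 CPM in rfISCs, with 4 of 5 tested higher and Tpbpa and Prl3d1 at 0 in all libraries. Fibroblast markers summed to 6.87 and 10.9 CPM in ESCs and 25.6 and 21.7 CPM in rfISCs, with 4 of 6 tested higher and Lum at 0 in all libraries. Their part in the levels of the kinases was not tested.

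The remaining members of the Mapk class are the atypical kinases ERK3, ERK4 and ERK7, encoded by Mapk6, Mapk4 and Mapk15. Mapk6 was at 161 and 167 CPM in ESCs against 190 and 199 CPM in rfISCs, without overlap (log2 fold change 0.24, SE 0.0579, adjusted p = 0.00618). Its call was lost without rfISCs replicate 2 (adjusted p = 0.0907). Mapk4 was at 8.13 and 10.4 CPM in ESCs against 7.96 and 6.63 CPM in rfISCs and did not pass (log2 fold change -0.35, adjusted p = 0.155). Leaving out ESCs replicate 1 gave Mapk4 a call as lower. Mapk15 had 10 and 9 counts in ESCs and 34 in each rfISCs library (log2 fold change 1.59, SE 0.470, adjusted p = 0.0181). The groups of Mapk15 did not overlap, but at these counts its call was lost in 7 of the 13 other settings, among them DESeq2 (adjusted p = 0.113) and leaving out ESCs replicate 2 (0.0698), rfISCs replicate 1 (0.126) or rfISCs replicate 2 (0.0917). Limma on log2(TPM + 1) gave Mapk15 a log2 fold change of 0.30.

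The promoters of Mapk10, Mapk11 and Mapk12 are shown because these genes had the largest rises of the Mapk class among members called under every setting tried. They are RefSeq sequences of GRCm38.p6, 300 bases each, 5′ to 3′ on the gene's strand, and run from 250 bases before to 50 bases after the start. Capitals mark the motif matches found by a search of both strands. The motifs searched were the CRE (TGACGTCA), the E-box (CACGTG), the GC box (GGGCGG), the AP-1 site (TGANTCA) and the ETS site (CCGGAAG). The promoter shown for Mapk10 is the first of its listed pair and lay at chr5:103211285-103211584, that of Mapk11 at chr15:89149557-89149856 and that of Mapk12 at chr15:89140654-89140953, all on the minus strand.
Mapk10: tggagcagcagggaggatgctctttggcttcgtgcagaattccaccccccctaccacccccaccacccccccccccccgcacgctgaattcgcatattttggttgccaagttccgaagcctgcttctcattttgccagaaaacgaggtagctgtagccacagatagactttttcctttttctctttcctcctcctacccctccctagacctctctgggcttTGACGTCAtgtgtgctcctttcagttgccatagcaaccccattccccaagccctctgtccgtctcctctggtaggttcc
Mapk11: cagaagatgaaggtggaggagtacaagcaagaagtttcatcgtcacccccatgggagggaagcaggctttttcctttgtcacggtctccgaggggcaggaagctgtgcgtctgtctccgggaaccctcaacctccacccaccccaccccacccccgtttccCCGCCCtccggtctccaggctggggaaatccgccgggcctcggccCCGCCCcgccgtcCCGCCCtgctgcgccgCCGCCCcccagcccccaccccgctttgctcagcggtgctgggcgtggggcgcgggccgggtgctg
Mapk12: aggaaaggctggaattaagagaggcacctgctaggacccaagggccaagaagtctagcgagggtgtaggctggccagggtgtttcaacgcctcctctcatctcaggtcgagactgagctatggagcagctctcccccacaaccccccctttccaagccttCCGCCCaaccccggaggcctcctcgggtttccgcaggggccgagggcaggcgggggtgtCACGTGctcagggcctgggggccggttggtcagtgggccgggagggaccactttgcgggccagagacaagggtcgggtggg

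The Mapk10 promoter shown held 1 CRE, the letters that factors of the CREB and ATF families bind. The other promoter listed for Mapk10 held no match to any motif searched. The CRE was in 1.79% of the 32851 promoters of the table and in 1 of the 46 promoters of members. The Mapk11 promoter held 4 GC boxes, the letters that SP1 binds, all read on the opposite strand. The GC box was in 35.7% of all promoters and in 60.9% of member promoters. Member promoters were also richer in G and C, with a median of 64.5% beside 52.7% over all promoters. The Mapk12 promoter held 1 E-box, in 7.15% of all promoters, and 1 GC box. AP-1 and ETS letters were in none of the 3 sequences shown, beside 7.81% and 8.86% of all promoters. A match is a description of letters, and binding was not measured.

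**Figure D4:**
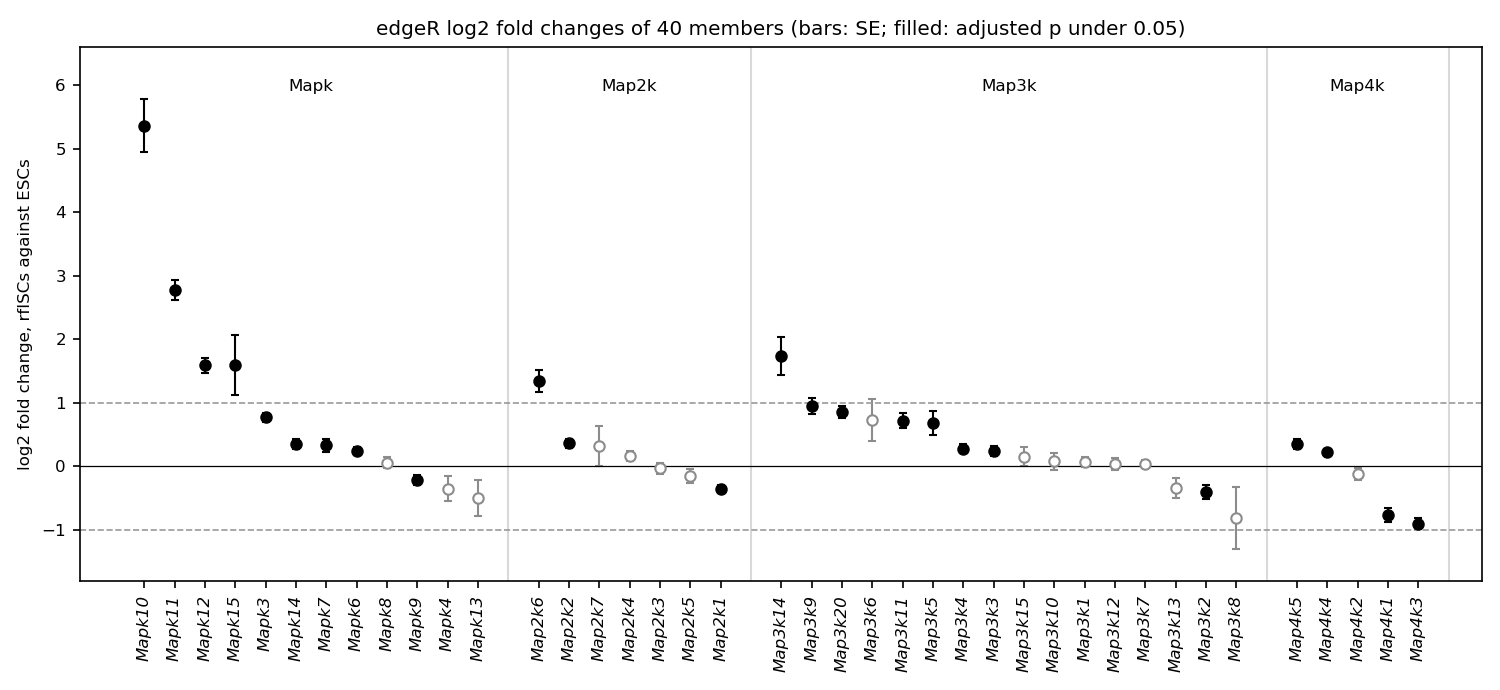
Log2 fold change of rfISCs against ESCs for 40 of the tested members, ordered within each class (bars are the SE from edgeR; filled marks have an adjusted p under 0.05; dashed lines mark 2-fold). Mapk10 at 5.36 and Mapk11 at 2.77 stand highest, and every filled mark below 0 stays above the lower dashed line.

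In the Map3k class 7 of 16 tested genes rose, 1 fell and 8 did not pass, as the plot of fold changes by class shows. The called share of the class was 50%, beside 53.7% of all genes tested. Map3k14 encodes NIK, the kinase of the noncanonical NF-kappa-B route. It was at 1.47 and 1.12 CPM in ESCs against 4.48 and 4.15 CPM in rfISCs, a rise of 3.33-fold without overlap (SE 0.301 on the log2 scale, adjusted p = 0.00105). On log2(TPM + 1) the log2 fold change of Map3k14 was 0.77, since the pseudocount weighs on low values. Map3k9 encodes the mixed-lineage kinase MLK1. It was at 12.6 and 12.5 CPM in ESCs against 25.7 and 22.8 CPM in rfISCs (log2 fold change 0.95, SE 0.12, adjusted p = 0.00015). Map3k20 encodes ZAK, a kinase activated by stalled ribosomes. It was at 22.2 and 22.6 CPM in ESCs against 38.7 and 41.9 CPM in rfISCs, again without overlap (log2 fold change 0.85, SE 0.0930, adjusted p = 6.01e-05).

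Map3k11, which encodes MLK3, was at 23.2 and 19.7 CPM in ESCs against 33.4 and 37.3 CPM in rfISCs (log2 fold change 0.72, adjusted p = 0.000555). Transcripts assembled by the authors held 72.4% of its counts in ESCs and 71.1% in rfISCs, and the call was lost on Ensembl transcripts alone. Map3k5 encodes ASK1, a kinase of the oxidative stress response. It was at 7.15 and 6.03 CPM in ESCs against 11.8 and 9.37 CPM in rfISCs (log2 fold change 0.68, adjusted p = 0.0132). Its call was lost in 5 of the 13 other settings, which were leaving out rfISCs replicate 1 (adjusted p = 0.101), the 3 limma fits on TPM, and Ensembl transcripts alone. Map3k4, which encodes the GADD45-responsive kinase MEKK4, and Map3k3, which encodes MEKK3, had rises of 0.28 and 0.24 on the log2 scale. The call of Map3k4 was lost without rfISCs replicate 1 (adjusted p = 0.0720). That of Map3k3 was lost in 7 of the 13 other settings, among them without rfISCs replicate 1 (0.0859), without rfISCs replicate 2 (0.177) and DESeq2 (0.0886).

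Map3k2 was the 1 gene of the class called lower. It encodes MEKK2, which acts with MEKK3 on MEK5. It was at 32.7 and 36.6 CPM in ESCs against 28.4 and 24.3 CPM in rfISCs (log2 fold change -0.40, SE 0.110, adjusted p = 0.0128). The groups did not overlap, but the call was lost in 5 of the 13 other settings, which were leaving out rfISCs replicate 2 (adjusted p = 0.118), the 3 limma fits on TPM, and Ensembl transcripts alone. The log2 fold changes of the 8 members that did not pass were 0.73 for Map3k6, 0.15 for Map3k15, 0.08 for Map3k10, 0.07 for Map3k1, 0.04 for Map3k12, 0.03 for Map3k7, -0.34 for Map3k13 and -0.81 for Map3k8. Of these, Map3k7, which encodes TAK1, was the most abundant, at 114 and 117 CPM in ESCs and 114 and 120 CPM in rfISCs. Map3k8, which encodes TPL2, was at 1.04 and 1.85 CPM in ESCs against 0.640 and 0.995 CPM in rfISCs. Map3k6 was called higher without ESCs replicate 1, and Map3k13 lower without ESCs replicate 2.

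In the Map4k class 2 genes rose, 2 fell and 1 did not pass. The called share was 80% of only 5 genes, beside 53.7% of all genes tested. Map4k3 encodes GLK, known for its part in amino acid signalling. It was at 97.4 and 113 CPM in ESCs against 55.8 and 56.6 CPM in rfISCs, a fall of 1.87-fold without overlap (SE 0.0834 on the log2 scale, adjusted p = 1.93e-05). Map4k1 encodes HPK1, known mainly from blood cells. It was at 26.2 and 24.9 CPM in ESCs against 15.8 and 14.3 CPM in rfISCs, a fall of 1.70-fold without overlap (SE 0.112 on the log2 scale, adjusted p = 0.00038). Its call was lost with limma on TPM without the filter. Map4k3 and Map4k1 had the most negative log2 fold changes among called members.

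Map4k4, which encodes HGK, had the highest counts of any member, at 401 and 386 CPM in ESCs against 455 and 465 CPM in rfISCs. Its TPM was 100.1 ± 3.67 in ESCs and 135 ± 2.71 in rfISCs. Its rise was small and without overlap (log2 fold change 0.23, SE 0.0485, adjusted p = 0.00357). Assembled transcripts held 66.3% of Map4k4 counts in ESCs and 67.5% in rfISCs, and the call was lost on Ensembl transcripts alone. Map4k5, a related kinase gene of the class, was at 53.2 and 51.0 CPM in ESCs against 68.5 and 64.4 CPM in rfISCs (log2 fold change 0.35, SE 0.0756, adjusted p = 0.0037). Map4k2 did not pass (log2 fold change -0.12, adjusted p = 0.332) and had the opposite sign on TPM.

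The members came from 354 transcripts in the table, of which 50 were assembled by the authors and the others were from Ensembl. A test of each transcript against its gene (edgeR's diffSpliceDGE) could be run on 154 transcripts of 36 members. It called 2 of them, 1.30% beside 0.893% of all 44468 transcripts tested, and 7 had an unadjusted p under 0.05. The first was the assembled Map3k10 transcript MSTRG.22021.2, with no counts in ESCs and 32.5 and 56.4 estimated counts in rfISCs. It held 8.12% and 15.2% of Map3k10 counts there (adjusted p = 0.0208), while the Map3k10 gene itself, which encodes MLK2, did not pass. The other called transcript, ENSMUST00000208227 of Map4k1, held 7.01% and 5.35% of the gene in ESCs and had no counts in rfISCs (adjusted p = 0.0419). The main Map4k1 transcript, ENSMUST00000085835, held 91.2% of the summed counts in ESCs and 92.7% in rfISCs. The main Map3k10 transcript, ENSMUST00000036453, held 54.0% and 46.2%, ENSMUST00000138243 held 24.4% and 25.5%, and the assembled MSTRG.22022.1 held 20.2% and 15.4%. The error of dividing reads between isoforms is not in these counts, and with the replicate number as a block no member transcript was called.

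The authors' deposited table marked 12 member transcripts as significant. They belonged to Map3k7, Map3k10, Map4k1, Map4k4, Mapk3, Mapk10, Mapk11 and Mapk12. No transcript marked as significant anywhere in the authors' deposited table had a log2 ratio nearer 0 than 2.322, and 38 member transcripts had an adjusted p under 0.05 there. Of the Mapk10 transcripts, ENSMUST00000112847 and ENSMUST00000238446 had the same length of 7196 bases and the same values in every library, 87.8 and 61.6 estimated counts in rfISCs and none in ESCs. The Mapk11 transcript with most reads, ENSMUST00000088823, held 75.2% of the gene in ESCs and 77.9% in rfISCs.

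The other genes of the pathway were read from 8 lists of 125 genes by role. Of the 117 tested, 40 rose, 24 fell and 53 did not pass, so 54.7% were called beside the background of 53.7%. Their median log2 fold change was 0.07. The called share of the lists together lies near the background. Genes called higher were 34.2% beside 27.3% of all genes, and genes called lower 20.5% beside 26.4%. Single lists, all small, ran from 36.4% called for RAS and RAF to 83.3% of only 6 tested ERK feedback genes. The counts are given for the genes they contain.

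Upstream of the kinases, 6 of the 22 tested genes of the RAS and RAF list rose and 2 fell. Frs2, an adaptor of FGF receptors, rose from 45.7 and 46.6 CPM to 74.4 and 82.3 CPM (log2 fold change 0.76, adjusted p = 4.17e-05). Hras, a RAS GTPase gene, rose by 0.61 on the log2 scale. Rasgrp1, a gene for a RAS exchange factor, fell from 19.1 and 30.3 CPM to 2.10 and 2.82 CPM (log2 fold change -3.32, SE 0.256, adjusted p = 6.22e-06). Rap1b, which encodes a RAS-related GTPase, fell by 0.23 on the log2 scale, a call that was lost under library totals.

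Of 16 scaffold and anchor genes 6 rose and 2 fell. Pea15a, whose protein holds ERK in the cytoplasm, rose from 11.9 and 14.4 CPM to 102 and 95.6 CPM, 7.51-fold and without overlap (SE 0.103 on the log2 scale, adjusted p = 6.80e-08). Arrb1, which encodes beta-arrestin 1, rose from 12.8 and 14.7 CPM to 42.1 and 41.9 CPM. On Ensembl transcripts alone the log2 fold change of Arrb1 was 0.20 and did not pass (adjusted p = 0.672). Ksr1, a scaffold gene of RAF, MEK and ERK, fell by 0.52 and Spag9, a JNK scaffold gene, fell by 0.35 on the log2 scale. The other JNK scaffold genes of the list did not fall. Mapk8ip1 and Mapk8ip2 rose by 1.17 and 1.46 on the log2 scale, and Mapk8ip3 did not pass (0.06). Among the 14 related kinases under other names 5 rose and 5 fell. They included Stk39 (0.83, but -0.37 and not passing on Ensembl transcripts alone) and Tesk1 (0.61) as higher, and the germinal centre kinase gene Tnik (-1.11) and the Hippo kinase gene Stk3 (-0.74) as lower.

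Of 15 listed regulators of the JNK and p38 branches, 4 rose and 4 fell, the latter being Tab3, Gadd45b, Trib3 and Txn1. The GADD45 proteins bind MEKK4. Gadd45g rose from 2.73 and 2.04 CPM to 21.5 and 25.7 CPM, 9.95-fold (SE 0.191 on the log2 scale, adjusted p = 9.86e-07). Gadd45a rose from 20.5 and 22.2 CPM to 38.4 and 38.7 CPM. Gadd45b fell from 50.8 and 37.6 CPM to 9.56 and 8.99 CPM, 4.76-fold (SE 0.153 on the log2 scale, adjusted p = 2.88e-06). Members of this family thus moved in opposite directions, each without overlap. Trib3, a pseudokinase gene, fell by 2.15 on the log2 scale.

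Downstream, 3 of 10 tested genes of kinases that MAP kinases phosphorylate rose and 4 fell. Mapkapk2, which encodes the p38 target MK2, rose by 0.96 on the log2 scale, but had a log2 fold change of 0.27 that did not pass on Ensembl transcripts alone (adjusted p = 0.509). Rps6ka5, which encodes MSK1, rose by 0.90. Mknk1, which encodes MNK1, fell by 0.85 and Rps6ka2, an RSK gene, fell by 0.46. Among the genes of transcription factors that MAP kinases phosphorylate, 6 of 20 tested rose and 3 fell. Myc had 1 and 24 counts in the ESCs libraries and 102 and 143 counts in the rfISCs libraries (log2 fold change 3.06, SE 0.627, adjusted p = 0.00278). The ESCs libraries differed widely, and leaving out ESCs replicate 1 gave Myc a log2 fold change of 2.18, and leaving out ESCs replicate 2 gave 6.46. DESeq2 did not call it (adjusted p = 0.108). Fosl2, an AP-1 gene, rose from 2.07 and 1.75 CPM to 6.26 and 6.22 CPM. Atf7 fell by 0.87 on the log2 scale, and Mef2b by 0.63 with a call at the threshold (adjusted p = 0.048) that was lost under DESeq2.

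Negative regulators of the cascade were also listed. Of 14 tested genes of MAP kinase phosphatases 6 rose and 3 fell, and of 6 tested ERK feedback genes 4 rose and 1 fell. Dusp6, whose protein dephosphorylates ERK, rose from 2.95 and 2.96 CPM to 5.85 and 6.67 CPM (log2 fold change 1.08, SE 0.220, adjusted p = 0.00266). Dusp5, which encodes a nuclear ERK phosphatase, rose from 9.66 and 7.19 CPM to 19.7 and 19.5 CPM (log2 fold change 1.22, SE 0.161, adjusted p = 0.000191). Dusp1, whose protein acts on p38 and JNK as well, fell from 55.9 and 49.4 CPM to 23.8 and 19.3 CPM (log2 fold change -1.29, SE 0.117, adjusted p = 1.74e-05). Ppm1b, a gene for a PP2C phosphatase, fell by 0.50. The groups of each of these 4 genes did not overlap. Spred1 and Spry2, inhibitors that are themselves induced by ERK signalling in many cells, rose by 1.05 and 0.96 on the log2 scale. Il17rd, which encodes the FGF antagonist SEF, fell from 32.6 and 32.3 CPM to 12.1 and 11.9 CPM (log2 fold change -1.43, SE 0.104, adjusted p = 4.15e-06).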

How the data were processed

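RNA-seq libraries of 2 ESCs and 2 rfISCs samples were compared. The authors deposited 1 table of 160308 transcripts with estimated counts, which hold decimals, and TPM for each library, per the file headers. Per transcript, the authors deposited the fold change of rfISCs over ESCs as a ratio and on the log2 scale, with its p-value before and after adjustment. Bowtie 0.12.2 and mm9 appear in the submitters' processing notes without their use. The counting tool and the annotation are not given in the sources used here. No coordinates were taken from the table.

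Estimated counts were summed per gene name and rounded. Transcripts without a gene name (3382, with 1.22% to 1.62% of counts) were left out. Genes were filtered with filterByExpr (minimum count 10) and tested over all 4 libraries with edgeR 4.0.16 in R 4.3.3 (TMM scaling, quasi-likelihood, group as the 1 term, Benjamini-Hochberg over 16355 genes, threshold 0.05). SE is the log2 fold change divided by the square root of F. The replicates differed beyond sampling noise (chi-square per degree of freedom 6.71 and 4.55). Alternatives used library totals, DESeq2 1.42.0, limma 3.58.1 on log2(TPM + 1), no filter, a replicate block, Ensembl transcripts alone and each library left out. Scripts were tested on simulated counts.

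The members and lists were chosen with earlier results of these data known. Named were the MEK, ERK and ERK5 genes, up to 3 largest rises and falls per class and 2 per list, among called genes of at least 1 CPM. Other members and a few other list genes are given as single values. The genes beside the p38 pairs and the promoters were chosen after values were seen. A few items are not reported here. Promoters matched 34 of the 43 members. Sequences come from RefSeq (GRCm38.p6) and GENCODE M21 (GRCm38).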

Additional observations from a re-analysis of the deposited data

How the results depend on the processing

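Of 934 values of single genes under an alternative, 824 kept their direction and side of the threshold, 81 lost and 11 gained a call, and 18 changed sign. Members called lower, 5 by edgeR, numbered 2 with limma on log2(TPM + 1) and with a pseudocount of 0.1, 1 with limma without the filter, 3 on Ensembl transcripts alone, and 3 to 7 with each library left out. Pathway genes called lower, 24 by edgeR, numbered 11, 11 and 10 in those limma fits. All genes called fell from 8783 to 5219 with limma without the filter. Of all calls 50.9% were higher by edgeR, 59.2% with library totals and 66.4% with limma on TPM, and of the members' calls 79.2%, 84% and 89.5%. Same-numbered replicates did not deviate together across genes (correlation 0.00103). The labels do not say whether the numbers pair libraries, and the correlation cannot show that they do not. The replicate block gave 19 members higher and 4 lower (Mapk9 lost) and 8824 genes. Member isoforms called, 2 in the main test, numbered 0 with the replicate block, 1 at a minimum of 5 counts, 1 on Ensembl transcripts alone and 0 to 3 with each library left out. Signs changed, without a call at the changed sign, for the following genes. Map2k3 had 0.05 with library totals, 0.17, 0.18 and 0.17 with limma, and -0.09 to 0.02 with a library left out. Map4k2 had 0.56, 0.60 and 0.56 with limma. On Ensembl transcripts alone, Stk39 had -0.37, Map3k1 -0.04, Map3k10 -0.06 and Map3k13 0.18. With a library left out, the range was -0.08 to 0.77 for Map2k7, -0.01 to 0.07 for Map3k7 and -0.05 to 0.20 for Map3k10. It was -0.06 to 0.13 for Map3k12 and -0.05 to 0.18 for Mapk8. Map2k7 was called higher without ESCs replicate 1. The cause of the sign changes was not tested. Leaving out a library left 1 sample in a group, assumed to vary like the other group. Levels under about 1 CPM, such as Mapk15 and Mapk10 in ESCs, rest on few counts.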
